A study of Oryza sativa Japonica Group with 238 samples.

Results

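The 4 pyruvate decarboxylase genes OS05G0469600, OS05G0469800, OS03G0293500 and OS07G0693100 were followed through every rice root library of the atlas. They were taken by identifier from the 28248 genes measured, without a limit on their levels. Earlier results of these data were known when they were chosen. The file descriptions name each of them as a pyruvate decarboxylase or as similar to one: OS05G0469600 as a fragment, OS05G0469800 without an isozyme number, OS03G0293500 as isozyme 2 and OS07G0693100 as isozyme 3. OS05G0469600 and OS05G0469800 are called the OS05 pair here. A search of the descriptions found 1 more gene, OS01G0160100, which is also described as similar to isozyme 2 and is given below as a pathway neighbour.

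Pyruvate decarboxylase removes carbon dioxide from pyruvate and leaves acetaldehyde, which alcohol dehydrogenase then reduces to ethanol while it returns NADH to NAD+. This is the entry step of ethanol fermentation, the route by which plant cells keep glycolysis going when oxygen is too low for respiration. Rice roots live in flooded soil, and their outer layers, the exodermis among them, form barriers that limit the loss of oxygen to that soil. Lactate dehydrogenase competes for the same pyruvate and makes lactate.

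The plants were Nipponbare rice, and all of them were transgenic. In the RNA lines the promoter 35S, RSS1, CMZ, AtSCR (called SCR here), CASP, LSI1, QHB, SHR1, EXP5B, HMA5 or NRAMP5 drove HF-GFP-OsRPL18, a tagged ribosomal protein. Of 187 RNA libraries, 157 held TRAP RNA, the poly(A) RNA bound to tagged ribosomes of a line, and 30 held TOTAL poly(A) RNA of the 35S line. The other 51 libraries were ATAC-seq libraries from nuclei captured through an NTF or NTF2 tag driven by 35S, CMZ or QHB. Greenhouse roots were 26 days old: watered pots (control I and control II), pots without water for 5 to 6 days (deficit), pots flooded to just above the soil for 5 days (waterlogging) and pots wholly under water for 5 days (submergence, with the water line at 70 cm, under shade cloth). Recovery roots were sampled 1 day after the stress ended, at 27 days. Field roots came from a flooded paddy at 49 days, and plate roots from 7-day seedlings on agar with sugar. Each greenhouse replicate pooled the 21 plants of a pot. The labels do not say what a field or plate replicate is, so the p-values there measure only the spread between these samples. All groups had 3 replicates except CMZ on plates, which had 4. How many transformants stand behind a line is not stated in these sources, so a line difference cannot be told apart from a difference between transformants.

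The gene whose promoter drove the tag was compared between a line and 35S TRAP of the same environment. LSI1, the silicon influx transporter known from the exodermis and endodermis, stood at 2474 ± 108 TPM (SD, n = 3) in the LSI1 line in control I against 353 ± 84.5 TPM in 35S TRAP. The QHB, RSS1, SHR1 and EXP5B genes were also higher in every library of their own lines (control I for QHB and RSS1, field for SHR1 and EXP5B), although EXP5B reached only 0.310 to 3.84 TPM. HMA5 and NRAMP5 were not set apart in their own field lines, at 12.9 to 53.3 and 20.3 to 49.0 TPM against 19.3 to 36.3 and 18.4 to 32.1 TPM in 35S TRAP, so the labels of those lines are not borne out by that gene. CMZ, SCR and CASP have no such gene on the list. The root gene RCc3 stood at 11.2 to 64.6 TPM in the LSI1 line, below the median of 555 TPM over all RNA groups. RPL18, the gene of the tagged protein, ranged from 1145 to 122300 TPM among LSI1 libraries, so the transgene took very different shares of them. Its part in the results was not tested. A list of 9 shoot genes summed to between 4.87 and 6811 TPM over all RNA libraries, with the highest value in 35S TRAP on plates, and to 19.6 to 57.7 TPM in the LSI1 line. The deposited TPM columns each sum to nearly the same total, so the depth behind an RNA value is unknown. TPM is per length, so levels of different genes can be set side by side. The sources used here do not state how reads were divided between the paralogs or whether strand was used, and the separate levels of the OS05 pair are uncertain. A gene described as hypothetical beside 3 of the 4 genes carries nearly the same values as its neighbour: OS05G0469701 stood at 0.783 to 1.17 times OS05G0469600, OS05G0469812 at 0.898 to 1.15 times OS05G0469800, and OS03G0293450 at 0.976 to 1.03 times OS03G0293500, and reads of overlapping genes may be shared. In these bulk libraries, fewer cells of a type and less RNA per cell cannot be told apart.

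OS03G0293500 was the steady member and the OS05 pair the variable one. The group mean of OS03G0293500 ran from 35.2 TPM in submerged 35S TRAP roots to 758 TPM in the LSI1 line 1 day after deficit, a range of 21.5-fold over 62 RNA groups. OS05G0469600 ran from 0.152 TPM in TOTAL RNA of plate roots to 1070 TPM in the waterlogged LSI1 line. OS05G0469800 ran from 0.152 TPM in TOTAL RNA under deficit to 2059 TPM in the same waterlogged LSI1 roots. OS07G0693100 stayed low throughout, between 0.377 and 19.9 TPM, and reached a mean of 5 TPM in 9 of 62 groups, against 39 for OS05G0469600, 47 for OS05G0469800 and 62 for OS03G0293500.

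The order of the groups put the LSI1 line first for both genes of the OS05 pair. Its waterlogging group was highest, followed by its deficit recovery group (692 ± 39.2 TPM of OS05G0469600 and 1264 ± 72.2 TPM of OS05G0469800), field, waterlogging recovery and control I. Below those 5 groups came field roots of HMA5, SHR1, QHB and EXP5B, which hold 4 of the next places for both genes. The LSI1 deficit group stood far down, at place 41 of 62 for OS05G0469600 and 45 for OS05G0469800. Neighbouring groups in the order mostly overlapped: of 61 steps, the libraries of the 2 groups were apart in 1 step for OS05G0469600, 2 for OS05G0469800, 1 for OS03G0293500 and 0 for OS07G0693100. The step at the top, from the waterlogged to the deficit-recovered LSI1 roots, was one of those apart for both genes of the pair.

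**Figure D1:**
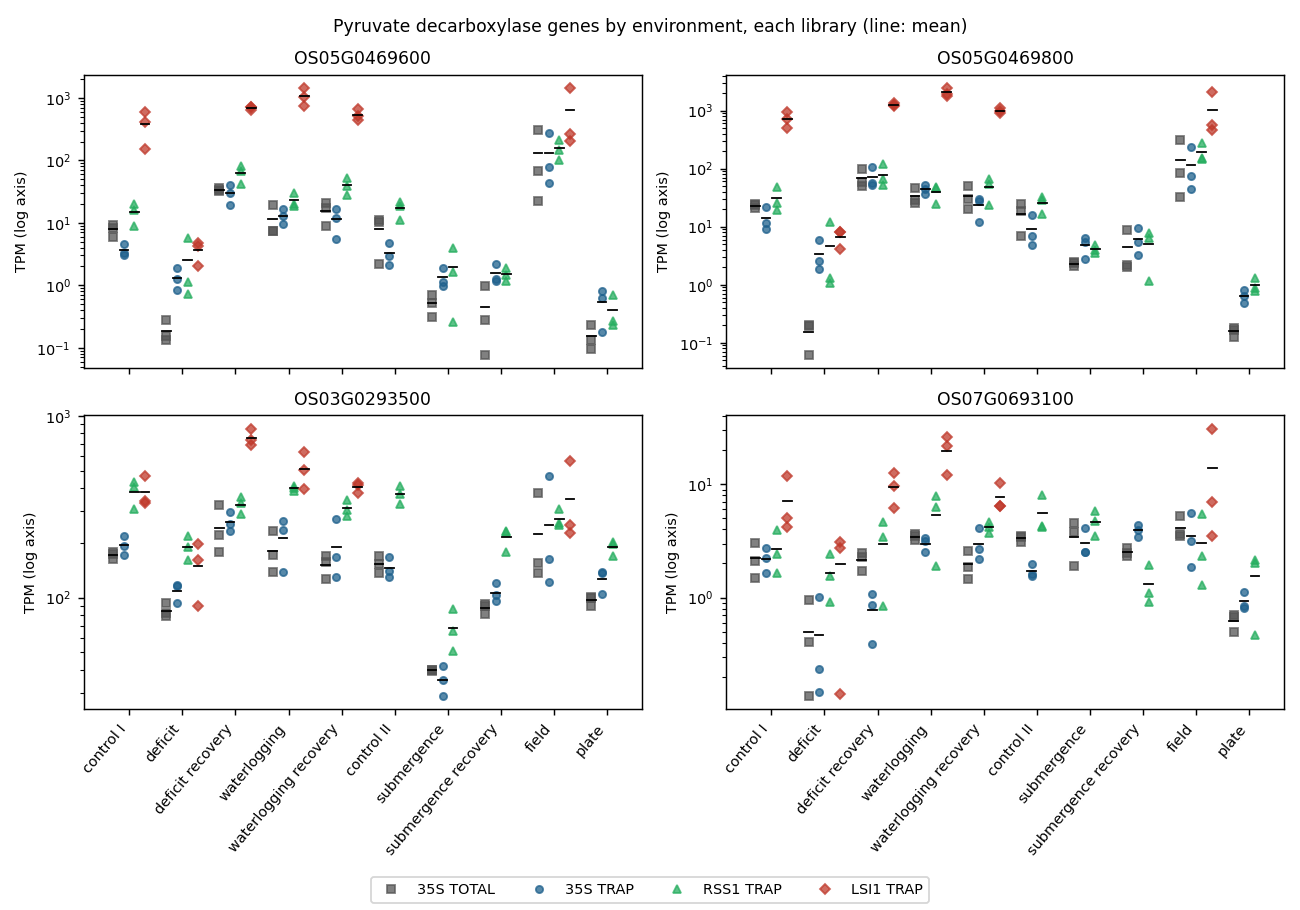
TPM of each of the 4 genes (log axis) in every library of 10 environments, for TOTAL and TRAP RNA of the 35S line and TRAP RNA of the RSS1 and LSI1 lines, with a line at each group mean. OS05G0469600 and OS05G0469800 span from under 1 to over 1000 TPM, whereas OS03G0293500 stays between 28.8 and 848 TPM in the libraries plotted and OS07G0693100 stays low.

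The summed TPM of the 4 genes ranged from 39.4 to 4559 per library, with a median of 207 TPM. This sum and the shares below leave out OS01G0160100. Under deficit that gene averaged 94.8 TPM in TOTAL RNA and 118 TPM in 35S TRAP, against 84.7 and 109 TPM of OS03G0293500. In control I it averaged 15.5 and 27.4 TPM, against 172 and 194 TPM of OS03G0293500. OS03G0293500 held 83.9% of the sum of the 4 genes in the median library, OS05G0469800 held 10.5%, OS05G0469600 held 4.70% and OS07G0693100 held 0.740%. The share of the OS05 pair changed with the environment: its median was 0.997% on plates, 4.70% under deficit, 13.4% in control I, 21.7% under waterlogging and 53.4% in the field. OS03G0293500 held over 50% of the sum in 24 of 24 deficit libraries and 22 of 22 plate libraries, and in 10 of 27 field libraries. In control I the exceptions were the 3 LSI1 libraries, where the pair held 66.1%, 76.3% and 76.6%. Under deficit the LSI1 pair share was 12.1%, 3.70% and 5.80%, inside the range of all deficit libraries of 0.245% to 35.8%.

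**Figure D2:**
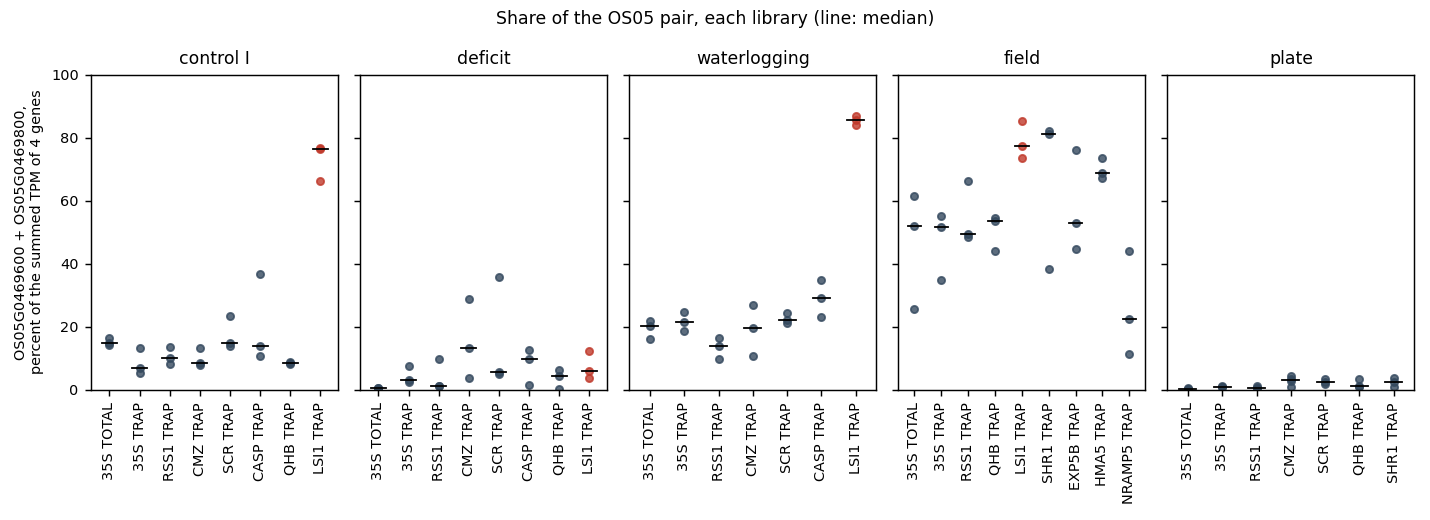
Percent of the summed TPM of the 4 genes held by the OS05 pair, in each library by line, with the line median, in control I, deficit, waterlogging, field and plate roots. LSI1 libraries, drawn in red, lie between 66.1% and 86.8% in control I and waterlogging and between 3.70% and 12.1% under deficit.

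Within the pair, OS05G0469800 was usually the higher gene. In the 118 libraries with at least 5 TPM of both, the ratio of OS05G0469800 to OS05G0469600 ranged from 0.689 to 4.13, with a median of 1.79. Its median was 2.09 in control I, 2.35 under waterlogging, 1.74 in deficit recovery and 1.22 in the field. The field stood lowest, with 20 of 27 libraries under 1.5, against 2 of 21 under waterlogging. In 35S TRAP roots the ratio was 0.849 to 1.05 in the field and 2.67 to 3.98 under waterlogging. Field ratios also differed within and between lines, at 1.42, 1.75 and 2.76 in LSI1, 1.84, 1.20 and 2.17 in SHR1, and 1.15, 1.78 and 1.81 in EXP5B. These ratios rest on reads that the counting may have split between the paralogs.

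**Figure D3:**
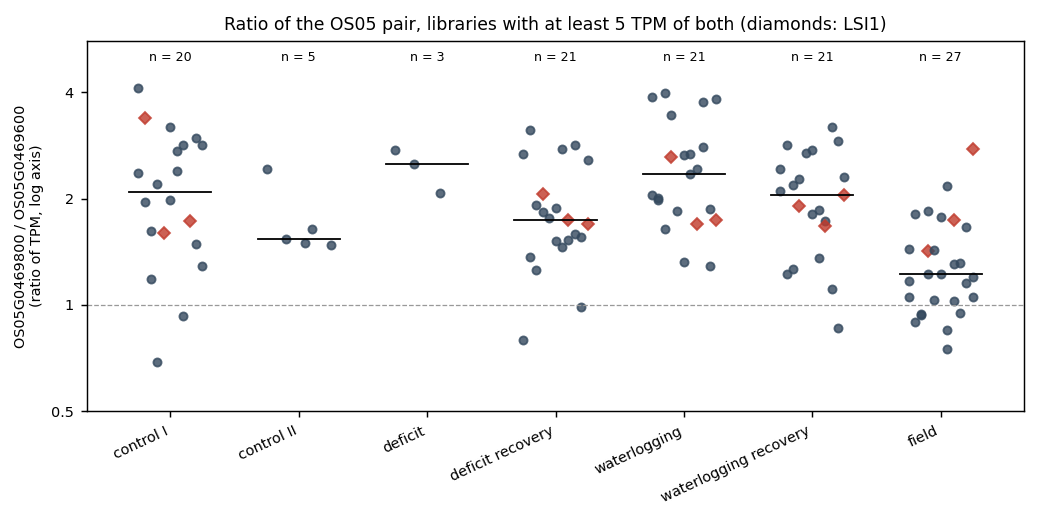
Ratio of OS05G0469800 to OS05G0469600 TPM (log axis) in the 118 libraries with at least 5 TPM of both, by environment, with a line at each median and LSI1 libraries as diamonds. Field libraries centre on 1.22, below the medians of 2.09 in control I and 2.35 under waterlogging.

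Among lines, LSI1 stood apart in the OS05 pair. In control I its 3 libraries held 150, 413 and 595 TPM of OS05G0469600, whereas the 21 libraries of the other TRAP lines and of TOTAL RNA ran from 3.04 to 41.1 TPM with a median of 7.62 TPM. For OS05G0469800 the LSI1 libraries held 507, 714 and 949 TPM, and the other 21 ran from 9.15 to 66.6 TPM with a median of 19.1 TPM. No library of another line reached the lowest LSI1 library for either gene. On the log2(TPM + 1) scale used for all tests below, LSI1 stood 6.19 ± 0.61 (SE) above 35S TRAP for OS05G0469600 (limma adjusted p = 3.1e-07) and 5.63 ± 0.49 above it for OS05G0469800 (limma adjusted p = 6.2e-08). A gene was called where the adjusted p over all genes tested was under 0.05 and the log2 difference at least 1 in size, and of all genes 17.8% were called in this comparison. Both genes of the pair were higher in LSI1 than in each of the 6 other lines tested, by 4.45 to 6.19 for OS05G0469600 and 4.57 to 5.71 for OS05G0469800. Over these 6 line comparisons, 31.0% of gene tests passed.

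OS03G0293500 was less uneven between lines. In control I LSI1 libraries held 332, 339 and 467 TPM against 172, 219 and 193 TPM in 35S TRAP, and the groups did not overlap. The difference was 0.95 ± 0.25 (limma adjusted p = 0.0095), below the fold limit for a call. Against the other lines LSI1 was called higher than CASP, by 1.20, and SCR, by 1.07, which is 2 of 6 lines, and 2 of 15 line pairs without LSI1 were called for OS03G0293500, with RSS1 above CASP by 1.22 and above SCR by 1.08. OS07G0693100 was higher in LSI1 than in 35S TRAP by 1.23 ± 0.40 (limma adjusted p = 0.034). It held 4.18, 5.09 and 11.9 TPM in LSI1 and 1.65, 2.72 and 2.24 TPM in 35S TRAP, and with a pseudocount of 0.1 TPM its limma adjusted p was 0.0947. Without LSI1 replicate 3 the difference was 0.82, and it was not called without any single 35S TRAP library either.

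The LSI1 excess of the pair was present in 4 other environments in at least 1 comparison and was not called under deficit. Under waterlogging LSI1 stood above 35S TRAP by 6.23 ± 0.37 for OS05G0469600, 5.51 ± 0.43 for OS05G0469800, 1.29 ± 0.29 for OS03G0293500 and 2.33 ± 0.44 for OS07G0693100, all 4 called by limma, against 18.5% of all genes. In deficit recovery the 4 differences were 4.55, 4.19, 1.54 and 2.53, all called, against 12.5% of all genes. In waterlogging recovery the pair stood 5.55 and 5.45 higher and OS03G0293500 1.17 higher, all called, against 16.4% of all genes, while OS07G0693100 at 1.13 was not called. Each of the 5 other lines measured gave a call for both genes of the pair in waterlogging and in the recoveries. The background over those line comparisons was 29.6%, 26.1% and 27.7% of gene tests in waterlogging, deficit recovery and waterlogging recovery. In the field only OS05G0469800 was called against 35S TRAP, at 3.13 ± 0.72 (limma adjusted p = 0.0035), against 16.3% of all genes, and at 2.46 without LSI1 replicate 2 and 3.79 without 35S replicate 2. OS05G0469600 stood 2.12 ± 0.76 higher (limma adjusted p = 0.059). Over all 7 other lines in the field, LSI1 was called above 1 for OS05G0469600 and above 4 for OS05G0469800, against 22.6% of gene tests.

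Under deficit no LSI1 difference of any of the 4 genes was called against any of the 6 other lines, where 17.2% of gene tests passed, and 3 of the 24 member tests had an unadjusted p under 0.05. Against 35S TRAP, where 8.20% of all genes were called, the pair stood 0.98 ± 0.72 and 0.87 ± 0.89 higher (limma adjusted p = 0.59 and 0.75).

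Pairs of lines without LSI1 gave few calls for the OS05 pair in most environments. Some of these line pairs called almost no gene at all. In control I, CMZ against CASP called 7 of 27365 genes, SCR against CASP 9 and SCR against CMZ 3. In the field, RSS1 against HMA5 called 2 of 27513 genes. The pooled shares below average over such line pairs. None was called for either gene under deficit or on plates (15 pairs each) or under waterlogging (10 pairs), against 7.55%, 25.9% and 13.4% of gene tests. In control I, 1 of 15 line pairs without LSI1 was called for OS05G0469600 and 0 of 15 for OS05G0469800, against 15.4% of gene tests. The called pair was CASP above 35S TRAP, at 1.63 (limma adjusted p = 0.047). It rested on CASP replicate 4, whose 41.1 TPM stood above the other CASP libraries at 7.62 and 6.89 TPM, and without it the difference was 0.85. Same-numbered control I libraries of RSS1 and 35S TRAP, and of SCR and 35S TRAP, deviated together. A fit with a replicate block shared by all control I TRAP lines called OS05G0469600 higher in RSS1 by 1.74 (limma adjusted p = 0.00559, from 0.057 without the block). It also called OS05G0469600 higher in SCR by 1.26 (limma adjusted p = 0.0236, from 0.12). Same-numbered libraries of LSI1, CMZ, QHB and CASP in that fit did not all correlate above 0.1 with 35S TRAP.

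In deficit recovery 1 of 10 line pairs without LSI1 was called for OS05G0469600 and 2 of 10 for OS05G0469800, against 13.1% of gene tests. RSS1 stood above CASP by 1.85 for the first and 1.5 for the second there, and CASP below 35S TRAP by 1.38 for OS05G0469800, a call lost without any of 5 libraries. In waterlogging recovery 4 of 10 line pairs without LSI1 were called for OS05G0469600 and 0 of 10 for OS05G0469800, against 9.74% of gene tests. All 4 put the RSS1 line higher, by up to 1.79. In the field 0 of 21 were called for OS05G0469600 and 2 of 21 for OS05G0469800, against 6.94% of gene tests, with NRAMP5 below HMA5 by 2.29 and below SHR1 by 2.37. With a replicate block shared by all field TRAP lines, HMA5 and SHR1 were also called above 35S TRAP for OS05G0469800, by 1.89 (limma adjusted p = 0.0404) and 1.97 (limma adjusted p = 0.0276). HMA5 field libraries held 301, 314 and 372 TPM of OS05G0469600, which is close together, whereas SHR1 held 51.7, 611 and 314 TPM.

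RSS1, a gene of dividing cells, drove a line with as much OS03G0293500 as LSI1 in control I, at 307, 434 and 405 TPM against 332, 339 and 467 TPM. In control II all 4 genes were higher in RSS1 than in 35S TRAP, by 2.08 for OS05G0469600, 1.48 for OS05G0469800, 1.34 for OS03G0293500 and 1.22 for OS07G0693100 (limma adjusted p from 0.000389 to 0.0156), against 23.6% of all genes. The OS05G0469800 call was lost without any of 3 libraries, its value running from 1.15 without 35S replicate 3 to 1.90 without 35S replicate 2, and the OS07G0693100 call without RSS1 replicate 3. Under submergence none of the 4 was called between the same lines, against 8.90% of all genes.

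Water deficit lowered the OS05 pair most in TOTAL RNA and in the LSI1 line. In TOTAL RNA, OS05G0469800 held 24.5, 23.6 and 20.6 TPM in control I and 0.193, 0.0616 and 0.202 TPM under deficit. It fell by 4.38 on the log2 scale (SE 0.54, limma adjusted p = 6.35e-07). OS05G0469600 held 5.94, 8.35 and 9.36 TPM and then 0.275, 0.132 and 0.152 TPM, and fell by 2.89 (SE 0.58, limma adjusted p = 0.00031). No deficit library of TOTAL RNA came near a control library for either gene. These deficit values lie under the 1 TPM added before the log, which bounds the fall. The falls in TOTAL RNA and in LSI1 therefore cannot be ranked by these log2 values. OS03G0293500 fell by 1.02, from 174, 163 and 179 TPM to 81.9, 78.7 and 93.5 TPM, and OS07G0693100 fell by 1.11. All 4 genes were thus called lower in TOTAL RNA, where 21.5% of all genes were called in either direction and the median change of all genes was 0.08. The OS03G0293500 value was 0.97 to 1.09 in size when single libraries were left out, so its call rests on the fold limit. The OS07G0693100 value, from a gene under 5 TPM, was -0.39 with a pseudocount of 5 TPM.

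In the LSI1 line the fall ended at single digits of TPM. OS05G0469600 stood at 4.74, 2.02 and 4.23 TPM under deficit, after 150, 413 and 595 TPM in control I, and fell by 6.22 (SE 0.58, limma adjusted p = 1.3e-06). OS05G0469800 stood at 8.11, 4.13 and 8.06 TPM, and fell by 6.55 (SE 0.42, limma adjusted p = 3.6e-08). OS03G0293500 fell by 1.40 (SE 0.33), to 90.2, 160 and 197 TPM, and its value was -1.07 without deficit replicate 1 and -1.63 without deficit replicate 3. OS07G0693100 was 1.52 lower (limma adjusted p = 0.087), so 3 of the 4 genes were called, against 14.8% of all genes. RPL18 stood at 1145 to 12120 TPM in these deficit libraries and at 12870 to 117600 TPM in control I, and its part in the fall was not tested. The LSI1 gene ranged from 364 to 2639 TPM under deficit.

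On the log2(TPM + 1) scale the fall was larger in LSI1 than in 35S TRAP. Control I means were 386 TPM of OS05G0469600 and 723 TPM of OS05G0469800 in LSI1, against 3.63 and 14.1 TPM in 35S TRAP. From such low levels a fall on this scale is bounded, so part of the difference was fixed by the starting level. How large that part is was not tested. The log2 change under deficit in LSI1 minus that in 35S TRAP was -5.21 ± 1.00 for OS05G0469600 (limma adjusted p = 0.0020) and -4.76 ± 1.07 for OS05G0469800 (limma adjusted p = 0.0099), where 2.21% of all genes were called. The second difference was -4.66 with a pseudocount of 0.1 TPM and was then not called (limma adjusted p = 0.0695). OS03G0293500 gave a difference of -0.56 ± 0.42 and OS07G0693100 of -0.35 ± 0.59, neither called. For the 5 other lines none of 20 such differences of the 4 genes was called, and none had an unadjusted p under 0.05, against 0.638% of gene tests called.

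In 35S TRAP RNA OS05G0469800 fell by 1.79 (SE 0.50, limma adjusted p = 0.0107), from 21.7, 9.15 and 11.4 TPM to 5.84, 2.54 and 1.87 TPM. That value was -1.45 and not called without control I replicate 1, and -1.53 and not called without deficit replicate 3. OS05G0469600 stood at 4.55, 3.31 and 3.04 TPM in control I and at 1.87, 1.25 and 0.850 TPM under deficit, a change of -1.01 (limma adjusted p = 0.109). OS03G0293500 changed by -0.83 (limma adjusted p = 0.076), and OS07G0693100 fell by 1.16, so 2 of 4 genes were called, against 14.4% of all genes. In the RSS1 line the pair fell by 2.40 and 2.91 and OS03G0293500 by 1.01, 3 of 4 called, against 14.5% of all genes. The RSS1 change of OS05G0469800 was -3.77 without deficit replicate 1, whose 11.8 TPM stood above 1.30 and 1.05 TPM in the other libraries.

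The remaining lines gave fewer or less stable calls. QHB had 3 called, OS05G0469600 at -2.22, OS05G0469800 at -1.87 and OS07G0693100 at -1.03, against 13.3% of all genes; the first was lost without deficit replicate 3 and both others without any of several libraries. CMZ had 1 called, OS03G0293500 at -1.40, against 7.88% of all genes. SCR had 1 called, OS03G0293500 at -1.06, against 6.86%, and that call was lost without most single libraries. CASP had none called, against 4.26%, with the pair at -2.12 each; without deficit replicate 3 OS05G0469800 reached -2.92 and was called. Over the 8 sets every one of the 4 genes had a negative change in 8 of 8, with OS05G0469600 called in 4, OS05G0469800 in 5, OS03G0293500 in 5 and OS07G0693100 in 3.

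**Figure D4:**
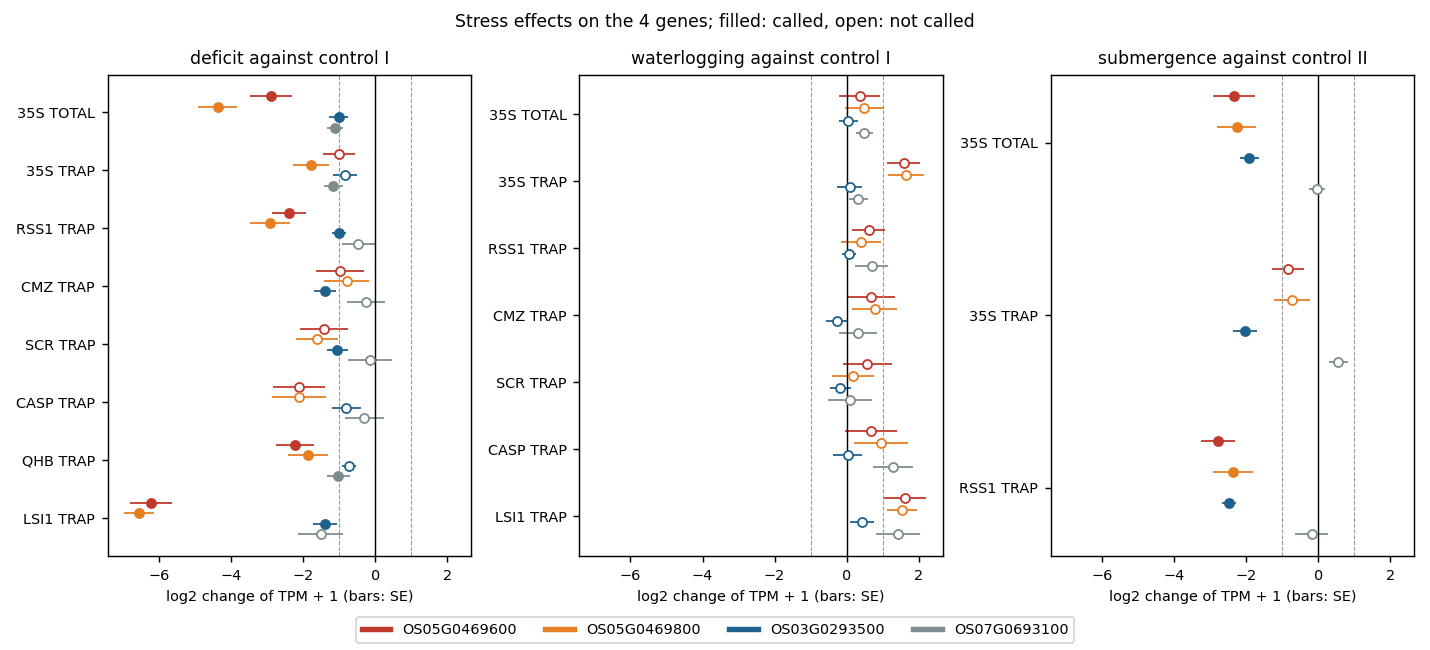
Log2 change of TPM + 1 (with its SE) of each gene under deficit, waterlogging and submergence in each set of libraries, filled where called by limma, with dashed lines at the fold limit. Under deficit the OS05 pair in LSI1 lies at -6.22 and -6.55 and all points lie below 0, no waterlogging point is filled, and OS03G0293500 lies between -1.91 and -2.46 under submergence.

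After 1 day of rewatering the pair was higher than under deficit in most sets, and OS05G0469600 was called above control I in 2 of 7. In LSI1 OS05G0469600 stood at 722, 648 and 707 TPM and OS05G0469800 at 1258, 1339 and 1195 TPM. Against deficit they rose by 7.27 ± 0.58 and 7.39 ± 0.42, and OS03G0293500 rose by 2.41 to 848, 739 and 688 TPM. All 4 genes were called in LSI1, against 15.0% of all genes, although the OS07G0693100 rise of 1.97 was lost without any of 3 libraries. In TOTAL RNA the pair rose by 4.88 ± 0.58 and 5.87 ± 0.54 and all 4 genes were called, against 18.9% of all genes. In 35S TRAP the pair rose by 3.70 and 4.08 and OS03G0293500 by 1.25, against 14.0%, and in RSS1 the pair rose by 4.41 and 4.26, against 11.5%.

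The SCR line had OS05G0469600, OS05G0469800 and OS03G0293500 called at 2.58, 2.38 and 1.03, against 5.93% of all genes, and each of these calls was lost without any of 4 or more libraries. Without deficit recovery replicate 1 the SCR pair stood at 1.99 and 1.96. CMZ had OS05G0469600 called at 2.64, against 8.30%, and lost it without deficit recovery replicate 3 or deficit replicate 2. CASP had none called, against 3.73%, with the pair at 2.39 and 2.26.

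Compared with control I rather than with deficit, OS05G0469600 in recovered 35S TRAP roots was higher by 2.69 ± 0.45 (limma adjusted p = 0.0063), at 40.8, 19.0 and 30.1 TPM, where 0.148% of all genes were called. OS05G0469800 at 105, 52.6 and 57.6 TPM was 2.29 above control I and was not called (limma adjusted p = 0.081), although no recovered library overlapped a control library. In RSS1 OS05G0469600 was 2.02 above control I (limma adjusted p = 0.045), against 0.416% of all genes, and the call was lost without any 1 library. In the 5 other sets none of the 4 genes was called, against 0.168% of gene tests. LSI1 had 1.05 ± 0.58 and 0.85 ± 0.42 for the pair there.

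Waterlogging gave no limma call for any of the 4 genes, and 7 of the 28 tests had an unadjusted p under 0.05. No share of all genes is given for this or the other unadjusted counts of RNA tests, so they have no background. The share of all genes called was itself small: 0.171% in 35S TRAP, 0.838% in TOTAL RNA, 0.507% in RSS1, 1.55% in LSI1, 0.0507% in CMZ, 0.00364% in SCR and 0.0259% in CASP. Both genes of the pair had a positive change in 7 of 7 sets, from 0.36 to 1.63 for OS05G0469600 and from 0.18 to 1.66 for OS05G0469800. In 35S TRAP OS05G0469600 held 9.49, 16.5 and 13.1 TPM and OS05G0469800 held 36.4, 44.1 and 52.1 TPM, all above their control I libraries. In LSI1 OS05G0469600 held 1446, 739 and 1025 TPM and OS05G0469800 held 2455, 1942 and 1779 TPM, again all above control I. Of the 4 genes, 3 were apart from control I in LSI1, 2 in 35S TRAP, 2 in TOTAL RNA, 1 in CASP and 0 in RSS1, CMZ and SCR. How many of all genes stand apart in this way was not counted, here or in the other comparisons said not to overlap. Such counts therefore have no background and cannot be read as a response of the 4 genes. The lowest limma adjusted p among the waterlogging tests was 0.072, for OS05G0469800 in LSI1 at 1.54 ± 0.42. In a fit of only those 2 groups it was 0.0126. OS03G0293500 changed by -0.27 to 0.42 over the 7 sets. Of 20 differences between a line and 35S TRAP in the waterlogging change of a gene, 0 were called by limma and 1 had an unadjusted p under 0.05, against 0.00144% of gene tests called. In waterlogging recovery none was called against waterlogging, where 0.237% of gene tests passed over the 7 sets, or against control I, where 0.0860% did, and 2 of 28 member tests in each had an unadjusted p under 0.05.

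Submergence lowered OS03G0293500 in all 3 sets that were tested. It held 140, 167 and 130 TPM in 35S TRAP of control II and 42.0, 35.0 and 28.8 TPM under water, and fell by 2.03 (SE 0.34, limma adjusted p = 5.1e-05). In TOTAL RNA it held 137, 168 and 152 TPM and then 39.5, 39.7 and 40.0 TPM, and fell by 1.91 (SE 0.26, limma adjusted p = 1.1e-06). In RSS1 it held 329, 371 and 412 TPM and then 86.7, 65.8 and 50.7 TPM, and fell by 2.46 (SE 0.19, limma adjusted p = 1.2e-10). Control and submerged libraries of OS03G0293500 did not overlap in any of these sets. Control II was taken as the control of submergence because both occur in the same sets; no label states it. The 3 sets show 0 calls among the 4 genes between control II and control I, against 0.00748% of gene tests. The submerged pots also stood under shade cloth, and its part cannot be told apart from that of the water.

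The OS05 pair was lower under submergence in TOTAL RNA and RSS1 but was not called in 35S TRAP. In TOTAL RNA OS05G0469600 held 2.22, 10.2 and 11.1 TPM in control II and 0.516, 0.311 and 0.703 TPM under water, and fell by 2.34 (SE 0.58, limma adjusted p = 0.0014). OS05G0469800 fell by 2.26 (SE 0.54), from 6.94, 24.8 and 18.3 TPM to 2.47, 2.07 and 2.39 TPM. In RSS1 the pair fell by 2.78 and 2.35. In 35S TRAP the changes were -0.84 and -0.72, with limma adjusted p of 0.15 and 0.29. OS07G0693100 was called in none of the sets. That makes 3 of 4 genes in TOTAL RNA, 3 of 4 in RSS1 and 1 of 4 in 35S TRAP, against 35.9%, 38.3% and 20.1% of all genes. The submergence change of the pair was lower in RSS1 than in 35S TRAP by 1.94 ± 0.64 for OS05G0469600 (limma adjusted p = 0.064) and 1.64 ± 0.56 for OS05G0469800 (limma adjusted p = 0.073), neither called, against 13.3% of all genes.

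One day after submergence OS03G0293500 had risen by 1.57 in 35S TRAP, 1.12 in TOTAL RNA and 1.67 in RSS1, all called by limma, whereas the pair was called in none. The background of all genes was 16.3%, 26.3% and 29.5%. OS07G0693100 was called in RSS1, at -1.30, and lost that call without any of 4 libraries. Against control II, OS03G0293500 was no longer called in any set, at -0.45, -0.79 and -0.79. The pair was still lower than control II in TOTAL RNA, by 2.45 and 1.79, and in RSS1, by 2.81 and 2.32, against 7.59% and 7.88% of all genes. In 35S TRAP it was not called, at -0.72 and -0.49, against 2.16%. The OS05G0469800 call was lost without any of 4 libraries in TOTAL RNA, and without submergence recovery replicate 3 in RSS1, where it was -1.68. OS07G0693100 was 1.47 lower in RSS1 than in control II, and that call was lost without any 1 library.

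Field roots held the most OS05 pair RNA outside LSI1. In the 24 field libraries of other lines and TOTAL RNA, OS05G0469600 ran from 22.2 to 611 TPM with a median of 153 TPM, and OS05G0469800 from 31.9 to 732 TPM with a median of 174 TPM. In 35S TRAP OS05G0469600 held 42.8, 273 and 78.5 TPM and was 4.42 ± 0.45 above control I (limma adjusted p = 5.7e-07), and OS05G0469800 held 45.2, 232 and 73.3 TPM and was 2.71 ± 0.50 above it (limma adjusted p = 0.00076). The spread between field replicates was wide. Replicate 2 was the highest of its group for OS03G0293500 in 8 of 9 field sets and for each gene of the pair in 5 of 9. For the pair, replicate 3 was the highest in EXP5B, HMA5, NRAMP5 and RSS1. The pair was also called higher in TOTAL RNA, at 3.16 and 1.99, in RSS1, at 3.28 and 2.65, and in QHB, at 3.92 and 3.91. Without field replicate 2, OS05G0469800 was 1.14 and not called in TOTAL RNA and 2.04 in 35S TRAP, and OS05G0469600 was 2.19 in TOTAL RNA. When only field and control I libraries entered the fit, OS05G0469600 in TOTAL RNA and OS05G0469800 in TOTAL RNA and 35S TRAP were not called (limma adjusted p = 0.106, 0.182 and 0.0685).

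In LSI1 the field values of the pair, 261, 1438 and 208 TPM of OS05G0469600 and 455, 2049 and 573 TPM of OS05G0469800, overlapped control I, with changes of 0.36 ± 0.58 and 0.21 ± 0.42. That left 2 of 4 genes called in 35S TRAP, TOTAL RNA, RSS1 and QHB and 0 of 4 in LSI1, against 7.60%, 7.00%, 10.5%, 3.51% and 6.39% of all genes. OS03G0293500 and OS07G0693100 were called in no field comparison. Field and greenhouse roots differ in age and in growing place as well as in flooding, and these cannot be told apart.

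Plate seedlings held almost none of the pair. Over 22 plate libraries OS05G0469600 ran from 0.0941 to 4.07 TPM and OS05G0469800 from 0.128 to 3.34 TPM, while OS03G0293500 stayed between 53.5 and 202 TPM. Against control I OS05G0469800 was lower in all 6 sets, by 4.36 in TOTAL RNA, 3.11 in 35S TRAP, 3.90 in RSS1, 2.99 in CMZ, 4.33 in SCR and 2.61 in QHB. OS05G0469600 was called lower in TOTAL RNA, 35S TRAP, RSS1 and QHB, by 1.60 to 3.46, and was not called in CMZ (limma adjusted p = 0.051) or SCR (limma adjusted p = 0.081). The share of all genes called was 22.2% in TOTAL RNA, 20.4% in 35S TRAP, 11.9% in RSS1, 12.3% in CMZ, 7.90% in SCR and 7.75% in QHB. OS03G0293500 was called lower in CMZ, by 1.32, and in SCR, by 1.03, the second lost without any 1 plate or control library. The QHB calls of the pair were lost without single libraries, 4 of them for OS05G0469600 and 2 for OS05G0469800. The shoot list was highest in 35S TRAP plate libraries, and its part in the difference was not tested; age and medium cannot be told apart from it.

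On the log2(TPM + 1) scale, TOTAL and TRAP RNA of the 35S line differed in the deficit change of the pair. The pair started lower in TRAP, with control I means of 3.63 TPM of OS05G0469600 and 14.1 TPM of OS05G0469800. In TOTAL RNA these means were 7.88 and 22.9 TPM. TRAP minus TOTAL was -0.93 and -0.75 in control I, neither called. From low levels a fall on this scale is bounded, so part of the differences below was fixed by the starting level. How large that part is was not tested. Within deficit, OS05G0469800 was 1.84 ± 0.54 higher in TRAP than in TOTAL RNA (limma adjusted p = 0.016), where 6.85% of all genes were called, and OS05G0469600 was 0.95 higher and not called. The deficit change of OS05G0469800 was less negative in TRAP by 2.59 ± 0.77 (limma adjusted p = 0.034), against 4.75% of all genes. For OS05G0469600 it was less negative by 1.88 and not called (limma adjusted p = 0.14). TOTAL and TRAP libraries with the same replicate number deviated together in all 10 environments, with correlations of 0.195 to 0.824. With that replicate block both differences were called, at 1.88 ± 0.40 (limma adjusted p = 0.0015) and 2.59 ± 0.38 (limma adjusted p = 3.7e-05), against 10.1% of all genes. Under submergence the difference of the pair was 1.5 and 1.54 and was called with the block (limma adjusted p = 0.0065 and 0.0037, against 14.3% of all genes) but not without it (limma adjusted p = 0.22 and 0.21, against 10.1%). OS03G0293500 and OS07G0693100 gave no call in these differences. In control II the pair also started lower in TRAP, with means of 3.27 and 9.25 TPM against 7.86 and 16.7 TPM in TOTAL RNA. The part of that start in the submergence differences was not tested.

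Reads over the upstream region of each gene gave a second readout, tested with edgeR and called on the adjusted p alone, under 0.05. In the 35S nuclei OS05G0469800 had 28.5, 26.5 and 24.4 CPM (counts scaled to the total over all upstream regions of a library) in control I and 40.5, 62.2 and 65.9 in the field, a log2 change of 1.45 (edgeR adjusted p = 3.1e-06). OS03G0293500 went from 39.4, 33.7 and 41.5 to 52.4, 90.7 and 71.1, a change of 1.25 (edgeR adjusted p = 0.0002). OS05G0469600 went from 18.2, 20.7 and 17.3 to 20.2, 31.3 and 24.7, a change of 0.79 (edgeR adjusted p = 0.004), and its groups overlapped. OS07G0693100 changed by 0.04 (edgeR adjusted p = 0.89). These changes carry edgeR's TMM scaling, under which field libraries read higher than in the CPM values printed. Scaled by library totals alone, the median change of all regions was -0.35 in place of -0.01, and the 4 changes were 1.11, 0.91, 0.44 and -0.31 in the same order. OS05G0469600 was then not called (edgeR adjusted p = 0.13), while OS05G0469800 and OS03G0293500 were. Of all called regions, 8615 were higher and 9671 lower with TMM, against 4168 higher and 14073 lower with library totals. The 3 of 4 calls with TMM stand against 51.7% of all regions, so the share among the 4 genes is near the background. In CMZ nuclei none of the 4 was called in the field, with OS05G0469600 at 0.81 (edgeR adjusted p = 0.57), against 0.00283% of all regions. In QHB nuclei OS03G0293500 had 29.3, 39.9 and 57.6 CPM in control I and 16.7, 27.1 and 25.7 CPM under deficit, with no overlap. Its change of -1.03 was not called (edgeR unadjusted p = 0.0024, adjusted p = 0.42), in a comparison that called 0 of all regions and had 3145 at an unadjusted p under 0.05.

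No upstream region of the 4 genes was called in 35S nuclei under deficit, waterlogging or submergence, or had an unadjusted p under 0.05 there, against 0.797%, 0 and 6.70% of all regions. Of all regions under waterlogging, 2052 had an unadjusted p under 0.05, and DESeq2 also called 0. The fall of the pair in deficit RNA and of OS03G0293500 in submergence RNA thus had no called counterpart in 35S nuclei. Over the ATAC libraries of all lines and environments, depth ran from 812498 to 17113727 counts per library.

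**Figure D5:**
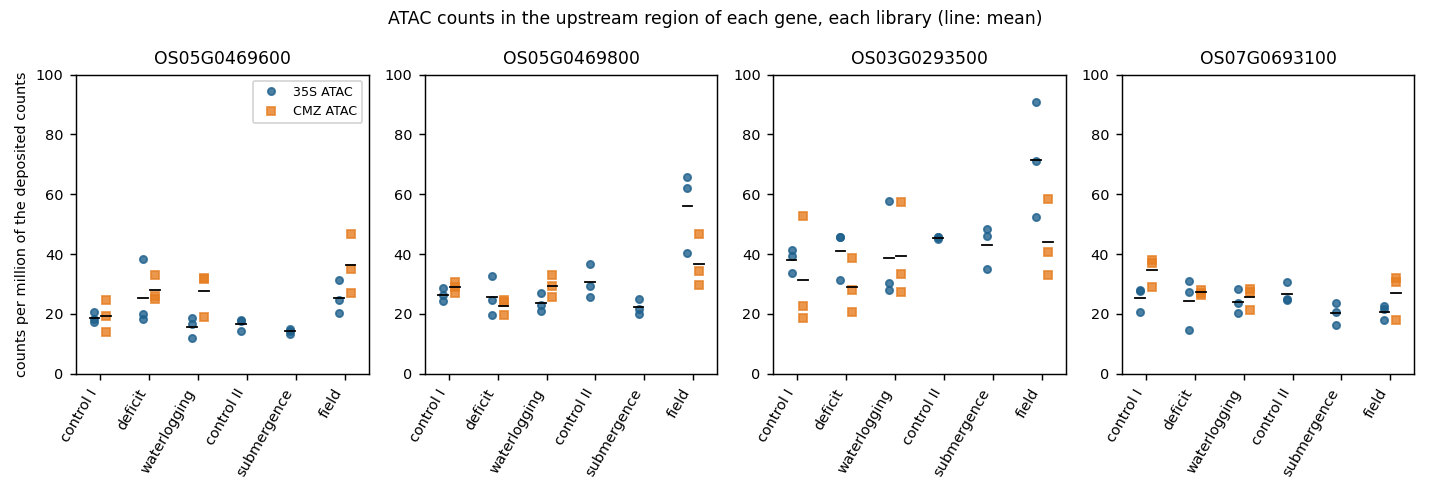
CPM in the upstream region of each of the 4 genes, by environment, in each ATAC library of 35S and CMZ nuclei. The 35S field libraries of OS05G0469800 (40.5 to 65.9) and OS03G0293500 (52.4 to 90.7) lie above their control I libraries (24.4 to 28.5 and 33.7 to 41.5).

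The genes most like each member were found by the Pearson correlation of group mean log2(TPM + 1) over all 62 RNA groups, among 26331 genes, as a description in which groups share lines and environments. The nearest gene to OS05G0469600, OS05G0469800 and OS03G0293500 was in each case the neighbouring hypothetical gene named above, at 0.9996, 0.9999 and 0.99998. The pair correlated at 0.977 with each other. The lactate dehydrogenase OS06G0104900 followed, at 0.952 with OS05G0469600 and 0.972 with OS05G0469800, ahead of an early nodulin gene, OS06G0142400, at 0.925 with the first and OS01G0318202 at 0.935 with the second. OS03G0293500 was closest after its neighbour to OS06G0247651 (0.904), to the beta subunit of the pyrophosphate-dependent phosphofructokinase OS06G0247500 (0.902), a glycolytic enzyme, to OS03G0788700 (0.889) and to another lactate dehydrogenase, OS02G0105400 (0.829). OS07G0693100 had no gene above 0.821, with OS04G0412000, OS04G0618950, OS07G0176500, OS07G0176400 and OS02G0125200 at 0.793 to 0.821. Between members, the pair correlated at 0.782 and 0.754 with OS03G0293500 and at 0.705 and 0.712 with OS07G0693100. OS01G0160100 correlated at -0.139 to 0.00116 with the 4 genes.

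OS01G0160100, the remaining gene described as a pyruvate decarboxylase, moved the other way under deficit. It stood at 94.8 ± 30.1 TPM (SD, n = 3) in TOTAL RNA under deficit against 15.5 ± 0.84 TPM in control I and rose by 2.49. In 35S TRAP it rose by 2.06, in LSI1 by 1.93 and in RSS1 by 1.68, all called by limma. Of all genes, 21.5%, 14.4%, 14.8% and 14.5% were called in TOTAL RNA, 35S TRAP, LSI1 and RSS1. OS03G0293500 held 81.9, 78.7 and 93.5 TPM in the same deficit libraries of TOTAL RNA. OS01G0160100 was not called under submergence.

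Some partner enzymes of fermentation also changed. The shares of all genes called in either direction were 21.5%, 14.4%, 14.5% and 14.8% under deficit in TOTAL RNA, 35S TRAP, RSS1 and LSI1, and the counts in this and the next paragraph stand against them. Of 3 alcohol dehydrogenases, which reduce acetaldehyde to ethanol, 1 was lower under deficit in each of TOTAL RNA, 35S TRAP, RSS1 and LSI1, namely OS11G0210500, which fell by 3.44, 2.08, 2.98 and 4.33 and went from 2228 to 112 TPM on average in LSI1. OS11G0210300, described as alcohol dehydrogenase 1, was called only in submerged RSS1, at -1.16. Of 2 lactate dehydrogenases both were lower under deficit in all 4 sets, with OS06G0104900 at -4.31, -2.56, -3.63 and -6.82 and OS02G0105400 at -1.95, -1.60, -1.48 and -2.12. Under submergence OS06G0104900 fell by 3.89, 2.16 and 2.54 in TOTAL RNA, 35S TRAP and RSS1, where 35.9%, 20.1% and 38.3% of all genes were called. The aldehyde dehydrogenase OS02G0730000, of the enzymes that oxidise acetaldehyde and other aldehydes, rose by 5.19, 3.64 and 5.46 there, 1 of 2 such genes, and fell under deficit in 35S TRAP and LSI1.

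Genes that sense or accompany low oxygen were counted in the same way. Both hemoglobins on the list, OS03G0226200 and OS03G0233900, were lower under deficit in all 4 sets, with OS03G0226200 at -7.60 in TOTAL RNA (8.89 against 1809 TPM) and -6.68 in LSI1, and list medians of -7.21, -4.53, -6.79 and -6.17. Of 5 group VII ethylene response factors, 2, 3, 1 and 3 were lower under deficit in TOTAL RNA, 35S TRAP, RSS1 and LSI1. Under submergence 3, 3 and 4 of these 5 were higher in TOTAL RNA, 35S TRAP and RSS1, with OS09G0287000 at 3.83, 2.90 and 4.34 and OS03G0341000 at 2.23, 2.25 and 2.03. The share of all genes called in these sets, in either direction, was 35.9%, 20.1% and 38.3%. Of 14 genes described as pyruvate kinases, which make the pyruvate that the decarboxylases use, 9, 3 and 10 were lower and 1, 1 and 0 higher under submergence in those sets. Called in either direction, 4 of 14 in 35S TRAP is near the 20.1% of all genes called there. Under waterlogging OS09G0287000 rose by 2.10 in TOTAL RNA, and both hemoglobins were lower in RSS1, at -2.54 and -3.52.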

How the data were processed

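RNA values are the authors' deposited TPM. The file headers state a floor of 3 CPM in 1 or more conditions and quantile normalization by limma voom ahead of the TPM step, so library depth is unknown. ATAC values are raw read counts per gene upstream region as deposited, over 35678 regions, with 812498 to 17113727 counts per library (median 3099295). The submitters' processing notes name Bowtie2, TopHat2, HOMER, limma and build IRGSP-1.0; settings are not stated. No genome or sequence was used, and the RefSeq gene table matched 0 identifiers.

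The 4 genes, the pathway lists, the markers and the tests were chosen with earlier results of these data known. Log2(TPM + 1) values of genes that reached 1 TPM in 3 or more libraries of a fit were tested with limma 3.58.1 in R 4.3.3, with a mean trend and Benjamini-Hochberg adjustment over all genes tested; all 4 genes passed in the 8 environment fits. On this scale the change of a low gene is understated. Environments of a line shared 1 fit, and lines were compared within an environment. Upstream counts were tested with edgeR 4.0.16 (quasi-likelihood, TMM), with DESeq2 1.42.0 as an alternative. Both tests were tried on simulated data. Named genes were the 4 members in all groups, list genes called under deficit, waterlogging or submergence in 35S TRAP, TOTAL or RSS1, and the 5 genes most correlated with each member; a gene count or example beyond that, in LSI1, was added after its values were seen. Same-numbered replicates were taken as paired where every pair's deviations correlated above 0.1: TOTAL with TRAP in all 10 environments, and 15 of 66 environment comparisons. Alternatives were other pseudocounts and filters, rescaled libraries, fits of only the groups compared, a fit without the trend, a replicate block, single libraries left out and, added after seeing the data, upstream counts scaled without TMM.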

Additional observations from a re-analysis of the deposited data

Results flagged for a closer look

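On the log2(TPM + 1) scale, the deficit change in LSI1 minus that in 35S TRAP was -5.21 for OS05G0469600 and -4.76 for OS05G0469800 (limma, interaction of line and stress). Part of both differences was fixed by the low start in 35S TRAP, with control I means of 3.63 and 14.1 TPM. How large that part is was not tested. The second difference was not called with a pseudocount of 0.1 TPM.

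A difference between RNA pools was found for OS05G0469800, whose deficit change in 35S TRAP minus that in TOTAL RNA was 2.59 (limma).

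One library stood far from its group: among the 4 CMZ plate libraries, OS05G0469800 held 3.34 TPM in 1 and 0.180, 0.577 and 0.593 TPM in the others. A rule of this kind picks out about 1 in 20 groups by chance, and only this group had 4 libraries.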

How the results depend on the processing

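Of 3656 alternative values of 264 environment results, 3502 kept their side of the call, 119 lost it and 35 gained it; for 1502 values of 168 line results the counts were 1438, 31 and 33, for 96 values of 48 interactions 94, 1 and 1, and for 104 values of 52 pool results 96, 0 and 8. Of 159 values of 16 upstream results, 158 kept theirs and 1 lost it: with library totals in place of TMM, a choice added after seeing the data, OS05G0469600 in field 35S nuclei was 0.44 and not called. No called value changed sign; among values called under neither setting, 112, 80, 4, 0 and 23 had the other sign. The causes were not tested.

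For OS03G0293500, a pseudocount of 5 TPM gave -0.98 in TOTAL RNA and -0.99 in RSS1 under deficit, and rescaled libraries gave -0.99 in RSS1. For OS05G0469600, a fit of only the groups compared called the 35S TRAP deficit change of -1.01 (limma adjusted p = 0.0244). For OS05G0469800, 35S TRAP submergence against control I was -1.33 and called (limma adjusted p = 0.0385), the LSI1 waterlogging change of 1.54 was called in a fit of only those groups (limma adjusted p = 0.0126), and the LSI1 minus 35S deficit difference was -4.66 with a pseudocount of 0.1 TPM. For OS07G0693100, a pseudocount of 5 TPM gave -0.39 in TOTAL RNA and -0.40 in 35S TRAP under deficit, LSI1 against 35S was 1.51 in control I with a pseudocount of 0.1 TPM (limma adjusted p = 0.0947), and it was 1.13 and called in waterlogging recovery in a fit of only the 2 lines (limma adjusted p = 0.0109).

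With single libraries left out, deficit changes ran from -1.09 to -0.97 for OS03G0293500 in TOTAL RNA and -1.16 to -0.89 in RSS1, -2.15 to -1.45 for OS05G0469800 in 35S TRAP and -1.32 to -0.93 for OS07G0693100 in TOTAL RNA. LSI1 against 35S ran from 0.79 to 1.04 in control I and 0.93 to 1.46 in waterlogging recovery for OS03G0293500, 1.25 to 2.86 in the field for OS05G0469600, and 0.82 to 1.48 in control I and 0.54 to 1.46 under deficit for OS07G0693100.

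Where the replicate numbers did not pair the samples, the replicate block gave 2.12 for OS05G0469600 in field LSI1 against 35S (limma adjusted p = 0.0232, now called), lost the control I CASP call of OS05G0469600 (0.56) and the QHB deficit call of OS05G0469800 (-1.87, limma adjusted p = 0.0501), and gained OS05G0469600 in control I QHB against 35S (1.37) and OS05G0469800 in CMZ deficit recovery (1.96). In the 15 paired environment comparisons the block changed no call of the 4 genes. For ATAC, DESeq2 called 525 regions under deficit against 282 by edgeR. RNA depth is unknown, which limits what can be said of levels under 1 TPM.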
